A study of Mus musculus with 26 samples.

Results

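Resting WT monocytes from the bone marrow were compared with resting WT MHCII negative macrophages from the lung. These 9 samples, 4 of monocytes and 5 of lung macrophages, are the WT samples of those cell types among the 26 samples of the series, which also holds ACKR2-/- samples and small peritoneal macrophages. All 9 came from naïve female WT mice of the C57BL/6J strain, without a deletion or a transgene. Mice in the study were 8 to 10 weeks old unless another age is stated. Monocytes were sorted by FACS from flushed marrow with a gate that included CD45+ Ly6G- SiglecF- F4/80- cells with CD11b and Ly6C on the surface. Cells of 5 mice were pooled in each monocyte sample. Lung cells were sorted after enzyme digestion of the tissue with a gate that included CD45+ Ly6G- SiglecF- Ly6C- CD11b+ F4/80+ cells without surface MHCII, and how many mice went into a lung sample is not stated. Polyadenylated RNA was amplified with a SMARTer kit, made for small amounts of RNA, before sequencing. The question was how the marrow cells that give rise to tissue macrophages differ in RNA from macrophages of this lung gate. Counts of monocytes and of lung macrophages were deposited in separate tables that list different sets of genes, so that cell type and sequencing table coincide in every comparison below and their parts in a difference cannot be told apart.

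Classical monocytes are made in the marrow from dividing progenitors that they share with granulocytes. They carry Ly6C, leave the marrow through CCR2, and can become macrophages in tissue. In the mouse they also give rise to nonclassical monocytes, which lose Ly6C, depend on the nuclear receptor NR4A1 and patrol the walls of small vessels. Lung interstitial macrophages lie in the tissue outside the airspace, whereas alveolar macrophages lie inside it and depend on PPARγ. Many tissue macrophages make C1q, the subunit that starts the classical complement cascade. CXCR4 is the receptor for CXCL12 and holds leukocytes in the marrow.

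Promoters of neighbouring genes that moved together are shown first. Elane and Prtn3, which encode serine proteases of myeloid granules, lie next to each other on chromosome 10 and were both high in monocytes. C1qb and C1qc, which encode chains of C1q, lie next to each other on chromosome 4 and were both high in lung macrophages. Ly6c2 encodes the surface protein by which the monocytes were sorted. Each sequence is the 250 bases before the RefSeq start of the gene in GRCm38.p6, on the strand of the gene, for Elane at chr10:79886062-79886311 (+), Prtn3 at chr10:79879417-79879666 (+), Ly6c2 at chr15:75111972-75112221 (-), C1qb at chr4:136886201-136886450 (-) and C1qc at chr4:136892915-136893164 (-). Capitals mark AGGAAGT or its reverse complement ACTTCCT, a core sequence bound by ETS family factors such as PU.1.
Elane: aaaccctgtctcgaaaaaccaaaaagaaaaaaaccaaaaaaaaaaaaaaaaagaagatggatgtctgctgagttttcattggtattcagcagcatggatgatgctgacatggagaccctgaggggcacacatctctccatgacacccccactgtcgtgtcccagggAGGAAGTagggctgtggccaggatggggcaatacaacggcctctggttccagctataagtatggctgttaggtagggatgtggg
Prtn3: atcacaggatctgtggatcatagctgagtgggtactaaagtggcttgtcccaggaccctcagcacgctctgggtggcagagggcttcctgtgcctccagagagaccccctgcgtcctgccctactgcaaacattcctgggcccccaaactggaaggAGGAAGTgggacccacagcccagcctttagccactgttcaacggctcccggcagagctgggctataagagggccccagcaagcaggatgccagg
Ly6c2: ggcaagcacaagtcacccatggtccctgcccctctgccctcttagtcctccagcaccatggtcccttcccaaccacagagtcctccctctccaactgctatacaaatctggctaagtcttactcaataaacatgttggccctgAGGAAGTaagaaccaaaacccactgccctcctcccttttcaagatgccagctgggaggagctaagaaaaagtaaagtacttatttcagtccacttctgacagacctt
C1qb: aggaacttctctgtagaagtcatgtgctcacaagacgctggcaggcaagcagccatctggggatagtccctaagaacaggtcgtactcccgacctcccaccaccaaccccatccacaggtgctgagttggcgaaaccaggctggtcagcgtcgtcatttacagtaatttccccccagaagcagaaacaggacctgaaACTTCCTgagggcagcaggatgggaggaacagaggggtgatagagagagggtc
C1qc: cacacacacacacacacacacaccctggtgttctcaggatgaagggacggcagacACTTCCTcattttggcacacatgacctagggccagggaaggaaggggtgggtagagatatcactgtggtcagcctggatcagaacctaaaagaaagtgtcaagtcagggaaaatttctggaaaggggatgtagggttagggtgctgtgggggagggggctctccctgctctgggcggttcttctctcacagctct
Each of these 5 windows held 1 match. The match began 84 bases before the start of Elane, 94 before Prtn3, 107 before Ly6c2, 53 before C1qb and 195 before C1qc. Of all 32851 windows in the RefSeq table, 2525 (7.69%) held the motif on either strand. A window was found for 14 of 16 genes of the neutrophil granule list, and 7 held the motif. It was held by 5 of 12 windows of the interstitial macrophage list, 2 of 7 of the classical monocyte list and 2 of 11 of the nonclassical monocyte list. The window of Camp, a granule gene, held none. A match describes the letters only and is no evidence of binding.

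Values are CPM, read counts divided by library size and adjusted by TMM factors over the 15954 genes that passed the filter on low counts. Total counts on the 50104 genes present in both tables were 15397339 to 19099532 per monocyte library and 20110739 to 24000893 per lung library. At these depths 3 reads correspond to 0.166 to 0.191 CPM in monocytes and to 0.108 to 0.163 CPM in lung libraries, counting error alone being considered. Log2 CPM over tested genes correlated at 0.987 to 0.991 between monocyte libraries, at 0.871 to 0.967 between lung libraries and at 0.579 to 0.703 between the cell types. Genes count as called where the adjusted p was under 0.05 and the log2 fold change beyond 0.5 in either direction by the quasi-likelihood test of edgeR with Benjamini-Hochberg adjustment. In this test 6239 genes (39.1% of those tested) were higher in lung macrophages and 3990 (25%) were higher in monocytes. The libraries of the groups did not overlap for 58.2% of tested genes. A gene list below therefore has to be read against a background in which 64.1% of genes were called and the median log2 fold change of lung over monocytes was 0.268. Beyond a log2 fold change of 2 the shares were 26.8% and 8.05%.

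The fold change varied with exon overlap and with gene biotype over this background, and the cause was not tested. In 10625 genes without exon overlap on the opposite strand the median log2 fold change was 0.04, with 32.5% called higher in lung macrophages and 29.1% in monocytes. Of 417 genes with at least 50% of exon length overlapped, 91.6% were called higher in lung macrophages and 2.64% in monocytes. In 197 genes with 75 to 100% of exon length overlapped by a gene on the opposite strand the median was 8.52 and 97% were called higher in lung. Among 805 genes annotated as antisense RNAs, 81.1% were called higher in lung macrophages and 3.48% in monocytes. In the 13034 protein coding genes those shares were 37.4% and 24.9%. Processed pseudogenes went the other way, with 69.3% of 756 called higher in monocytes and 8.99% in lung. A further 56 protein coding genes had at most 3 reads over all monocyte libraries and at least 20 CPM in every lung library, and 17 of these had at least 100 monocyte reads on a separately listed locus on a genome patch at the same coordinates and strand. Ehd1, which was at 0 reads in monocytes and at a mean of 295 CPM in lung macrophages, is among those 17, and its patch locus held 158 reads over all monocyte libraries (2.31 CPM). Patch loci of the 17 genes were at 1.48 to 87.8 CPM in monocytes, so that a 0 in the monocyte table is not the whole count of such a gene. Gapdh was listed at 4.40, 4.796, 29.9 and 4.53 CPM in monocytes and at 60.6 to 113 in lung macrophages. This glycolytic enzyme of every cell has many processed pseudogenes, and its log2 fold change of 3.02 is given as uncertain. Of genes named below, Cebpb, Hspa1a, Bid, Csf1r, Mpo, Cyp2f2 and H2-DMa had 10 to 25% of exon length overlapped on the opposite strand.

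**Figure D1:**
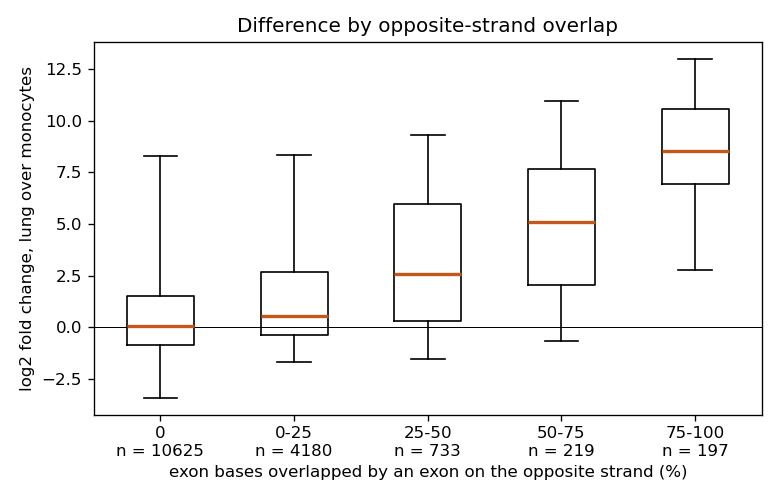
Log2 fold change of lung over monocytes by the share of a gene's exon length overlapped by exons on the opposite strand. The horizontal axis gives the overlap class with its number of genes and the vertical axis the log2 fold change, with the line in each box at the median and the box from the lower to the upper quartile. The median rises from 0.04 in genes without overlap to 8.52 in genes with 75 to 100% overlap.

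Genes used in the sort were examined in every library. Ly6c2 was at 5056, 6308, 5838 and 5850 CPM in monocytes and at 64.7, 37.0, 39.4, 26.8 and 7.79 CPM in lung macrophages. Lung macrophages were thus lower in every library, with a log2 fold change of -7.36 (SE 0.56, adjusted p = 2.114e-06). The gates selected Ly6C in opposite directions, so this difference was set up by the sort and is no independent result. Adgre1, which encodes F4/80, was at 70.2 to 110.1 CPM in monocytes and 322 to 685 CPM in lung macrophages. F4/80 was required by the lung gate and excluded by the monocyte gate, so this difference is no independent result either. Itgam, which encodes CD11b and was a criterion of both gates, was at 59.4 to 67.5 CPM in monocytes and 44.3 to 142 CPM in lung macrophages, and these ranges overlapped. It was not called with all libraries, and without lung library 3 it was called higher in lung macrophages (log2 fold change 0.70). Ptprc, which encodes CD45, was at 259 to 380.5 CPM in monocytes and 539 to 1299 CPM in lung macrophages. Of genes that the gates excluded, Ly6g was at 7.42 to 17.8 CPM in monocytes and at most 0.217 CPM in lung macrophages. Siglecf, listed as Siglec5, was at 11.2 to 18.3 CPM in monocytes and 0.493 to 9.75 CPM in lung macrophages, and it was called only without lung library 3 (log2 fold change -1.42) or without lung library 5 (-1.01) among the fits that left out 1 library. Ly6c1, a near-identical neighbour of Ly6c2 that may share reads with it, ran the other way, at 11.7 to 17.7 CPM in monocytes and 27.9 to 379.9 CPM in lung macrophages. Its level was highest in lung library 1 and lowest in lung library 5, as was that of the endothelial gene Ramp2. The part of endothelial cells in the level of Ly6c1 was not tested.

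Surface MHCII was absent from the lung gate, but MHC class II transcripts were not. H2-Ab1, which encodes a chain of the class II molecule I-A, was at 115, 105, 105 and 97.2 CPM in monocytes. In lung macrophages H2-Ab1 was at 1833, 989, 22270, 712 and 554 CPM. The third lung library was thus more than 10 times the next highest, and the other 4 were also above every monocyte library, with a log2 fold change of 5.64 that was 3.39 without it. Of 10 class II genes tested, 8 were called higher in lung macrophages and 0 in monocytes, with a median log2 fold change of 5.03. Their summed level was 924.7 to 1062 CPM in monocytes and 10600, 6154, 105100, 4652 and 5223 CPM in lung libraries 1 to 5. Cd74, the invariant chain that accompanies class II molecules, had a log2 fold change of 5.22 (SE 0.99, adjusted p = 0.0009113), and of 3.72 without lung library 3. H2-DMa, which helps to load peptide on class II molecules, was at 259 to 307 CPM in monocytes, at 1367 CPM in lung library 3 and at 98.0 to 191 CPM in the other lung libraries. Its fold change was not called with all 5 lung libraries, and without lung library 3 it was called lower in lung macrophages (log2 fold change -1.01).

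Lung library 3 stood apart in other markers as well, and the fit over all genes was repeated without it. The summed level of 10 dendritic cell genes was 1311 CPM in lung library 3 and 104.9 to 321.8 CPM in the other lung libraries. The summed level of 10 B cell genes was 4724 CPM against 721.6 to 1780 CPM. Nonclassical monocyte genes were low in it, at a sum of 2439 CPM against 8441 to 10770 CPM. Without this library 14999 genes were tested, of which 6038 (40.3%) were called higher in lung macrophages and 3841 (25.6%) in monocytes. Cd209a, a lectin of monocyte-derived dendritic cells, was at 42.4 to 55.7 CPM in monocytes, at 560.2 CPM in lung library 3 and at 0.888 to 17.6 CPM in the other lung libraries, so that its log2 fold change of 1.24 turned to -1.88 without it. Whether other cells in the sort gave these values was not tested.

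**Figure D2:**
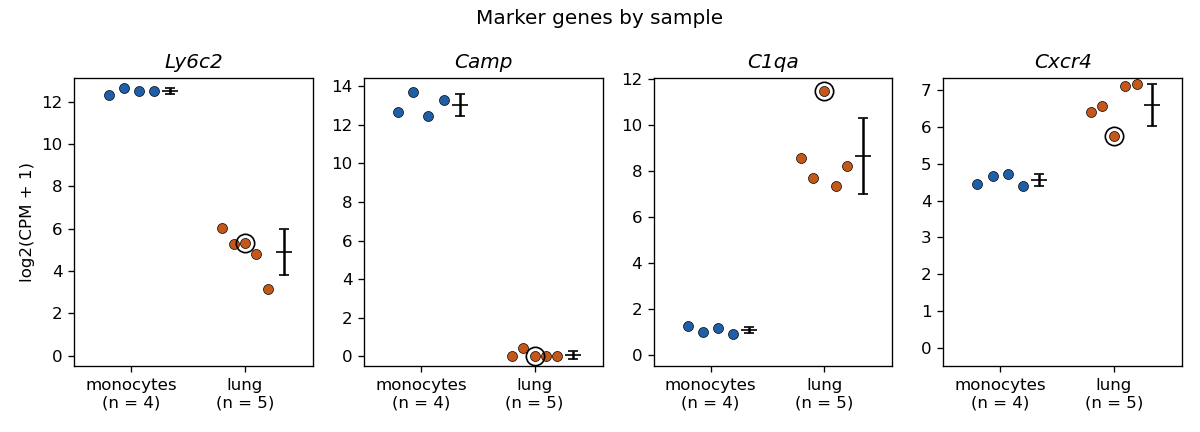
Log2(CPM + 1) of Ly6c2, Camp, C1qa and Cxcr4 in each WT library. Points are libraries (monocytes in blue, lung macrophages in orange), the bars show mean ± SD, and the circle marks lung library 3. The groups do not overlap in any of the 4 genes, and lung library 3 is highest for C1qa at 2882 CPM and lowest for Cxcr4 at 53.6 CPM.

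Genes of myeloid granules were the most different in the direction of monocytes. Of 16 genes in the neutrophil granule list, 13 were called higher in monocytes, 1 was called higher in lung macrophages, and the median log2 fold change was -10.155. Camp, which encodes the antimicrobial peptide cathelicidin, was at 6586, 13440, 5672 and 9893 CPM in monocytes. It had 0 reads in 4 lung libraries and was at 0.350 CPM in lung library 2. Elane, which encodes neutrophil elastase, was at 8123, 14130, 7288 and 9758 CPM in monocytes and gave 1 read over all lung libraries. Its ratio of monocytes to lung macrophages was 1094000, with a 95% counting interval of 196400 to 43230000. Mpo, which encodes the myeloperoxidase of primary granules, was at 7010, 10360, 5440 and 5860 CPM in monocytes and at 0.247 CPM in lung library 5, with 0 reads in the other lung libraries. Ms4a3, a gene of granulocyte and monocyte progenitors, was at 941 to 1792 CPM in monocytes and had 0 reads in lung macrophages, which makes it at least 50310-fold higher in monocytes.

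Further granule genes were high in the same monocyte libraries. Ngp, a secondary granule protein, was at 10030, 24360, 7959 and 15310 CPM in monocytes and at most 1.81 CPM in lung macrophages. S100a8 and S100a9, subunits of calprotectin, were at means of 15810 ± 4850 and 18330 ± 6390 CPM (SD, n = 4) in monocytes and 15.4 ± 10.0 and 23.7 ± 15.4 CPM (SD, n = 5) in lung macrophages. Ltf, which encodes lactoferrin, was at 730.5 to 2433 CPM in monocytes and at most 2.25 CPM in lung macrophages. Prtn3, Fcnb and Ctsg had log2 fold changes of -11.97, -15.26 and -15.73. Cebpe, a transcription factor needed for secondary granules, was at 79.3 to 183 CPM in monocytes and at most 0.650 CPM in lung macrophages. Monocyte library 2 was the highest and library 3 the lowest for Camp, Elane, Mpo, Ngp, S100a8 and S100a9. The summed level of the granule list was 64720, 123300, 56350 and 88370 CPM in monocytes and 11.54 to 404.8 CPM in lung macrophages. Neutrophils and their precursors make the same RNAs, and their part in the monocyte values was not tested. In such bulk samples, fewer cells of a type and less RNA per cell cannot be told apart. Mmp9, a gelatinase, was the exception called higher in lung macrophages, at 2.07 to 45.0 CPM against 1.16 to 2.74 CPM in monocytes.

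All 22 genes of the cell cycle list were called higher in monocytes, against a background of 25%, with a median log2 fold change of -4.49. Mki67, a marker of cycling cells, was at 174, 176, 183 and 209 CPM in monocytes and at 3.80, 6.76, 13.4, 6.61 and 5.57 CPM in lung macrophages. Plk1, a mitotic kinase, was at 196, 241, 186 and 187 CPM in monocytes and at 2.69, 2.45, 9.48, 0.650 and 0.444 CPM in lung macrophages. Libraries of the groups did not overlap for any of the 22 genes, and lung library 3 was the highest lung library for both genes. Pcna, the replication clamp, differed less, at 286 to 402 CPM in monocytes and 115 to 165 CPM in lung macrophages (log2 fold change -1.21, SE 0.16). Without lung library 3 the count of 22 of 22 remained.

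Each of the 10 genes in the classical monocyte list was called higher in monocytes, with and without lung library 3, and the median log2 fold change was -3.20. The list includes Ly6c2, whose protein the gates selected in opposite directions. Ccr2, the receptor for exit from the marrow, was at 821, 492, 804 and 668 CPM in monocytes. It was at 32.1, 24.1, 353, 34.4 and 29.8 CPM in lung macrophages, so that lung library 3 lay about 10 times above the others and still below each monocyte library. The log2 fold change was -2.88 (SE 0.82, adjusted p = 0.009507) and -4.39 without it. F13a1, which encodes a coagulation factor chain made by monocytes, was at 804 to 1207 CPM in monocytes and 17.2 to 101 CPM in lung macrophages. Chil3, a chitinase-like lectin that alveolar macrophages also make, was at 7511 to 8992 CPM in monocytes and at 1607, 1038, 1245, 702 and 80.6 CPM in lung macrophages. Lung library 5 was lowest for Ly6c2 and Chil3.

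Of the 36 transcription factors listed, 24 were called higher in lung macrophages and 4 in monocytes, with a median log2 fold change of 2.13. The 4 were Myb, Gfi1, Irf8 and Cebpe. Myb, a transcription factor of progenitors, was at 40.7 to 63.3 CPM in monocytes and 0.894 to 3.79 CPM in lung macrophages. Gfi1, a repressor needed for granulocytes, was at 52.9 to 95.1 CPM in monocytes and 2.64 to 7.31 CPM in lung macrophages. Irf8, which directs progenitors to monocytes, differed less, at 378 to 422 CPM in monocytes and 175 to 331 CPM in lung macrophages (log2 fold change -0.69, SE 0.18, adjusted p = 0.005157). Irf8 was not called in a fit of all 26 samples (log2 fold change -0.73, adjusted p = 0.0555) or in ACKR2-/- samples (-0.28, adjusted p = 0.38).

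Interferon stimulated genes were modestly higher in monocytes, with 11 of 20 called in that direction, 0 in the other and a median log2 fold change of -1.01. Over all tested genes 25% were called higher in monocytes, 39.1% in lung macrophages, and the median was 0.268. Ifit2 was at 29.8, 17.0, 23.2 and 20.8 CPM in monocytes and at 3.70, 3.42, 10.5, 2.17 and 2.61 CPM in lung macrophages. Usp18, which limits interferon signalling, had a log2 fold change of -1.44 (SE 0.32, adjusted p = 0.00241). Without lung library 3 the counts were 10 in monocytes and 2 in lung macrophages. Enzymes of glycolysis were split, with 9 of 17 called higher in monocytes and 5 in lung macrophages, beside the same 25% and 39.1%. Hk3, a hexokinase of myeloid cells, was at 220.1 to 329 CPM in monocytes and 29.0 to 52.7 CPM in lung macrophages. Pgam1, a phosphoglycerate mutase, was at 396 to 546 CPM in monocytes and 83.7 to 133 CPM in lung macrophages. The transporters ran the other way, with log2 fold changes of 1.67 for the glucose carrier Slc2a1 and 2.05 for the lactate carrier Slc16a3. Slc16a3 was at 38.5 to 54.6 CPM in monocytes and at 190.6, 231.1, 35.6, 179.8 and 296.5 CPM in lung macrophages. Lung library 3 thus lay below every monocyte library for this gene.

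**Figure D3:**
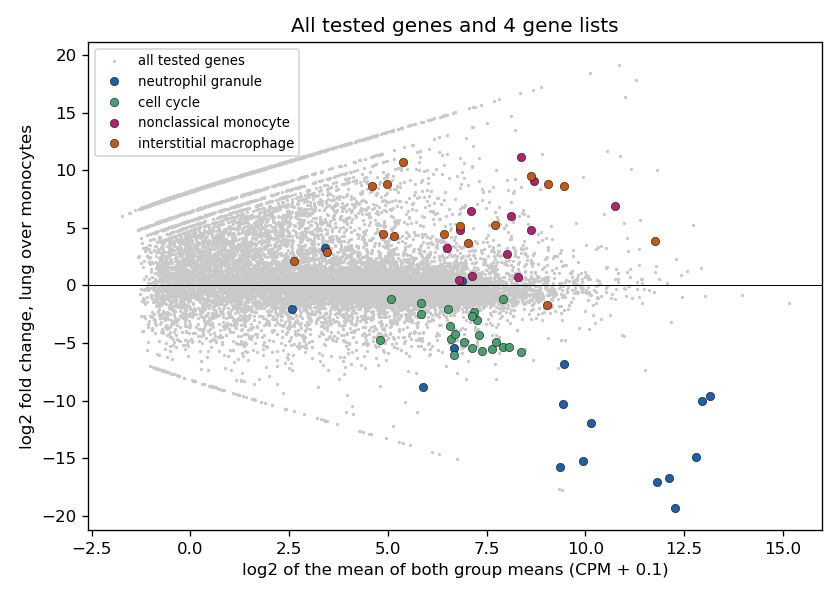
Log2 fold change of lung over monocytes against the log2 of the mean of both group means (CPM + 0.1) for the 15954 tested genes. Grey points are all genes and coloured points are the neutrophil granule, cell cycle, nonclassical monocyte and interstitial macrophage lists. Granule genes lie lowest, down to -19.30 for Elane, and all 22 cell cycle genes lie below 0.

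Markers of interstitial macrophages were higher in lung macrophages, with 15 of 16 called in that direction against a background of 39.1% and a median log2 fold change of 4.803. C1qa was at 1.34, 0.971, 1.22 and 0.883 CPM in monocytes and at 377, 204, 2882, 160.1 and 294 CPM in lung macrophages. Every lung library was thus more than 100 times above every monocyte library. The log2 fold change was 9.47 (SE 1.22, adjusted p = 6.983e-05), and 7.99 without lung library 3 (adjusted p = 1.986e-08). C1qb and C1qc followed the same order of libraries, with lung library 3 at 5322 and 3853 CPM and the other lung libraries at 265 to 651 and 227 to 513 CPM. Apoe, an apolipoprotein secreted by macrophages, was at 234 to 710.1 CPM in monocytes and 3962 to 9292 CPM in lung macrophages. Mrc1, the mannose receptor, was at 34.9, 26.6, 167, 27.1 and 25.2 CPM in lung macrophages and at 2.17 to 3.10 CPM in monocytes. Lyve1, a hyaluronan receptor of vessel-associated macrophages and of lymphatic endothelium, was at 105, 91.2, 49.3, 56.4 and 12.2 CPM in lung macrophages and at most 0.221 CPM in monocytes. Like the endothelial gene Ramp2, Lyve1 was highest in lung library 1 and lowest in lung library 5. The part of endothelial cells in the level of Lyve1 was not tested. Gas6, a ligand that bridges dying cells to phagocytes, gave 3 reads in monocytes and was at 31.7 to 116 CPM in lung macrophages. Cd63, a tetraspanin of late endosomes and granules, was the member called higher in monocytes, at 541 to 1123 CPM against 89.6 to 629 CPM, and this call was lost without monocyte library 2 (edgeR adjusted p = 0.0531) or without lung library 2 (adjusted p = 0.0506).

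Markers of nonclassical monocytes were also high in the lung samples, and the gate, Ly6C- and CD11b+, does not separate such cells by those proteins. Of 12 genes 10 were called higher in lung macrophages, and 12 of 12 without lung library 3. Nr4a1, the nuclear receptor on which nonclassical monocytes depend, was at 32.1, 20.1, 43.4 and 19.7 CPM in monocytes and at 3606, 3979, 1447, 4420 and 3591 CPM in lung macrophages. Cd300e, an activating receptor of monocytes, was at most 0.383 CPM in marrow monocytes and at 808, 736, 84.7, 678 and 1017 CPM in lung macrophages. Treml4, a receptor of nonclassical monocytes and spleen macrophages, was at 0.828 to 2.66 CPM in marrow monocytes and at 961, 864, 109.6, 874 and 1371 CPM in lung macrophages. Ace, the angiotensin-converting enzyme, was at 2.73 to 3.19 CPM in marrow monocytes and at 257, 308, 37.1, 351 and 399 CPM in lung macrophages. For each of these genes lung library 3 was the lowest lung library, in contrast to C1qa. The summed level of the list, 8441, 8903, 2439, 9591 and 10770 CPM in lung libraries 1 to 5 and 557.1 to 625.5 CPM in marrow monocytes, was higher in lung library 5 than in any other library. The lung samples therefore held RNA of both marker lists, and these counts do not show whether it came from the same cells. Nr4a1 is a large part of these sums. Only the lungs were digested with enzymes, and the part of digestion in the level of Nr4a1 was not tested.

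Alveolar macrophages were excluded by SiglecF in the gate. Of 13 genes in their list 11 were called higher in lung macrophages, 1 in monocytes (Chil3) and Siglec5 was not called. Car4, a carbonic anhydrase of the alveolar surface that endothelium also carries, was at 303, 139, 109, 98.1 and 19.7 CPM in lung macrophages and had 0 reads in monocytes, which makes it at least 2994-fold higher. Marco, a scavenger receptor of alveolar macrophages, was at 14.9, 15.3, 13.5, 8.92 and 3.01 CPM in lung macrophages. Pparg, the nuclear receptor of alveolar macrophages, was at 227, 196, 57.4, 237 and 391 CPM, with the highest value in the lung library in which Car4 and Marco were lowest. Fabp4, a fatty acid carrier, had the same order of extremes as Pparg, at 38.2 CPM in lung library 3 and 555 CPM in lung library 5.

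Summed levels of lung epithelial, endothelial and fibroblast genes were higher in every lung sample than in any monocyte sample. The lung epithelial list had 11 of 12 genes called higher in lung macrophages, and the endothelial and fibroblast lists 10 of 10 each. Sftpc, the surfactant protein of alveolar type II cells, was at 9239, 7249, 4855, 3162 and 202 CPM in lung macrophages and gave 1 read in monocytes. Scgb1a1, the secretoglobin of club cells, was at 7016, 1875, 3847, 2033 and 155 CPM in lung macrophages and at 0.425 to 1.38 CPM in monocytes. Inmt, a methyltransferase of lung fibroblasts, was at 1818, 715, 696, 586 and 283 CPM and at least 18140-fold higher than in monocytes. Col3a1, a fibrillar collagen, and Ramp2, an endothelial coreceptor, were at 30.7 to 298 and 24.8 to 316 CPM. Lung library 1 was the highest and library 5 the lowest for Sftpc, Inmt, Col3a1 and Ramp2. The summed level of the epithelial list was 18970, 11300, 10020, 6250 and 532.3 CPM in lung libraries 1 to 5, that of the endothelial list 234.5 to 2066 CPM and that of the fibroblast list 480.1 to 3573 CPM. In monocytes those sums were 83.3 to 135.6, 11.93 to 14.07 and 0.1655 to 1.084 CPM. Of the 12 protein coding genes with the most extreme called fold changes in lung macrophages, 7 are genes of such cells (Sftpc, Sftpa1, Inmt, Mfap4, Cyp2f2, Col3a1 and Ramp2), Ehd1 is one of the 17 genes with a patch locus, and Gm20481 has 100% of its exon length overlapped on the opposite strand. Cyr61, a matrix protein induced by serum, and Hspb1, a small heat shock protein, are also among the 12.

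Genes of lymphoid cells were also detected in lung samples. All 10 T cell genes were called higher in lung macrophages, at a summed level of 86.86 to 320.5 CPM against 3.818 to 5.282 CPM in monocytes. Of 10 NK cell genes 9 were called higher in lung macrophages, such as Gzma at 80.6 to 189 CPM, whereas Nkg7, which was also on in marrow cells, was called higher in monocytes at 616 to 1147 CPM against 67.3 to 151 CPM. Of 10 B cell genes 9 were called higher in lung macrophages. Ighm, the exception, was at 582 to 675 CPM in monocytes and at 911, 429, 2004, 419 and 457 CPM in lung macrophages. Of 10 dendritic cell genes 6 were called higher in lung macrophages, and without lung library 3, 6 were higher in lung macrophages and 4 in monocytes. Ccr7, the receptor of migrating dendritic cells, was at 256, 117, 554, 71.5 and 73.8 CPM in lung macrophages and at most 0.574 CPM in monocytes. In the remaining lists of other cells, higher in lung macrophages and higher in monocytes were 1 and 2 of 5 eosinophil genes, 3 and 1 of 8 mast cell or basophil genes, 5 and 3 of 10 erythroid genes, and 4 and 1 of 9 megakaryocyte genes. Over all tested genes those shares were 39.1% and 25%. The median log2 fold changes of these lists were -1.32, 0.154, 0.704 and 2.151 in that order, beside 0.268 over all genes.

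**Figure D4:**
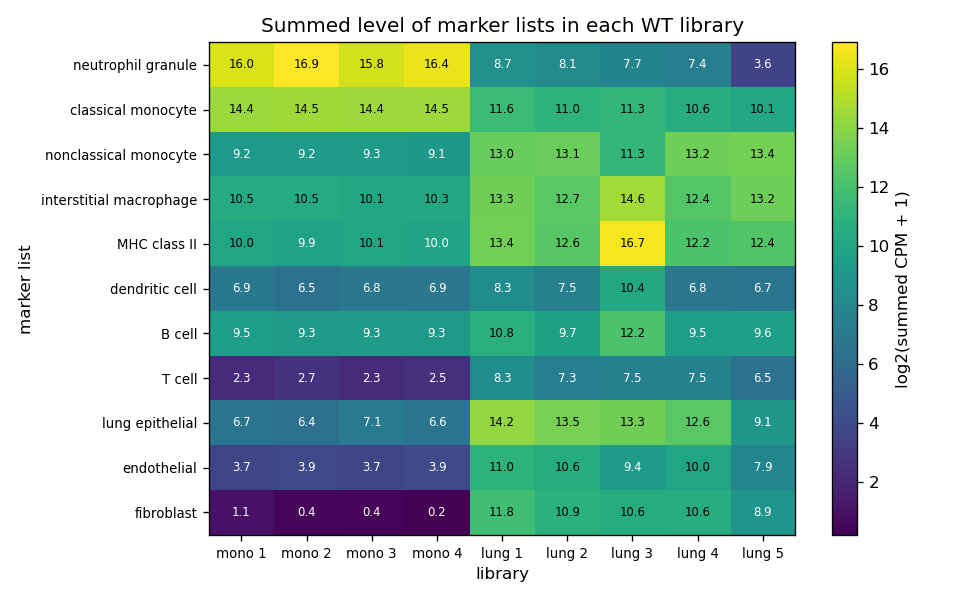
Summed level of 11 marker lists in each WT library, as log2(summed CPM + 1) by the colour scale and the number in each cell. Rows are marker lists and columns are the 4 monocyte and 5 lung libraries. Granule genes are highest in monocytes, MHC class II genes are highest in lung library 3, and epithelial, endothelial and fibroblast genes fall to their lowest lung level in library 5.

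Immediate early genes and inflammatory genes were higher in lung macrophages throughout. All 20 immediate early genes and all 20 inflammatory NF-kB target genes were called in that direction, against a background of 39.1%, with median log2 fold changes of 4.71 and 5.755. Fos was at 1067, 468, 2277 and 979.7 CPM in monocytes and at 3444, 2625, 4657, 3400 and 2384 CPM in lung macrophages. Egr1 was at 0.486 to 3.27 CPM in monocytes and at 733, 741, 1004, 585 and 217 CPM in lung macrophages. Dusp1, a phosphatase induced by stress, was at 167, 77.0, 525 and 146 CPM in monocytes and 3467 to 4672 CPM in lung macrophages. Monocyte library 3 was the highest monocyte library for Fos, Egr1 and Dusp1. Egr2 had 0 reads in monocytes and was at 14.0 to 109 CPM in lung macrophages, at least 938.3-fold higher. Lung library 5 was the lowest lung library for Fos, Egr1 and Egr2. The heat shock genes Hspa1a and Hspa1b, near-identical copies that may share reads, were at 3078 to 6873 and 5056 to 10750 CPM in lung macrophages and at most 6.42 and 9.96 CPM in monocytes. The lungs were digested with enzymes at warm temperature and the marrow was flushed, so that these genes and the preparation moved together and cannot be told apart.

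Cytokine genes of the NF-kB list were called higher in lung macrophages. Il1b was at 2.30, 1.82, 3.98 and 3.37 CPM in monocytes and at 1541, 2036, 3213, 1131 and 1879 CPM in lung macrophages (log2 fold change 9.41, SE 0.47, adjusted p = 1.655e-07). Tnf was at 6.07 to 10.2 CPM in monocytes and at 156, 137, 336, 136 and 78.2 CPM in lung macrophages. Cd83, a surface protein of activated antigen-presenting cells, was at 0.789 to 2.60 CPM in monocytes and 2401 to 4828 CPM in lung macrophages. Il10, which restrains inflammation, had 0 reads in monocytes and was at 8.53 to 24.6 CPM in lung macrophages, at least 375.5-fold higher. Il6 was at 139, 81.8, 26.3, 41.9 and 23.6 CPM in lung macrophages and at most 1.21 CPM in monocytes. Lung library 3 was the highest lung library for Il1b, Tnf, Cd83 and Il10, whereas lung library 1 was the highest for Il6.

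Chemokine and chemoattractant receptor genes differed in both directions. Cxcr4 was at 20.9, 24.6, 25.4 and 20.1 CPM in monocytes and at 84.0, 95.1, 53.6, 139 and 143 CPM in lung macrophages. The groups did not overlap, the log2 fold change was 2.18 (SE 0.28, adjusted p = 7.312e-05), and it was 2.50 without lung library 3. In an exact two-sided permutation test on log2(CPM + 1) the p for Cxcr4 was 0.00794, the smallest that 4 against 5 samples allow. Of 18 receptors 12 were called higher in lung macrophages and 2, Ccr2 and Cxcr2, in monocytes, beside 39.1% and 25% of all tested genes. Cx3cr1, the fractalkine receptor, was at 77.7 to 124 CPM in monocytes and 127 to 279.8 CPM in lung macrophages, and it was not called in the fit of all 26 samples (adjusted p = 0.0513). Ccrl2, an atypical receptor that presents chemerin, was at 8.83 to 14.6 CPM in monocytes and at 634, 612, 564, 536 and 551 CPM in lung macrophages. S1pr1, the sphingosine phosphate receptor of vessels and lymphocytes, was at 37.5 to 207 CPM in lung macrophages and at most 0.364 CPM in monocytes. Ackr3 had 0 reads in monocytes and was at 38.8, 34.3, 9.64, 15.1 and 2.47 CPM in lung macrophages. S1pr1 and Ackr3 were highest in lung library 1 and lowest in lung library 5, as Ramp2 was. The part of lung structural cells in their levels was not tested.

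Ackr2, the atypical receptor that the study deletes in other mice, was at 23.8, 16.9, 8.13, 13.4 and 0 CPM in WT lung macrophages. In WT monocytes it gave 2 reads, both in monocyte library 3. The other 4 lung libraries were thus above every monocyte library. The ratio of lung to monocytes was 435.8 with a 95% counting interval of 120.4 to 3602, and the exact permutation p was 0.0476. With lung library 1, 2, 3 or 4 left out it did not pass the filter on low counts and had no fitted value. Ackr2 was highest in lung library 1 and at 0 in lung library 5, as Sftpc, Inmt, Col3a1 and Ramp2 were highest and lowest in those libraries, and the part of lung structural cells in its level was not tested.

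Chemokine ligands were mostly higher in lung macrophages, with 17 of 21 called in that direction and 2 in monocytes, and a median log2 fold change of 8.10. Cxcl2, which attracts neutrophils, was at 0.182 to 6.53 CPM in monocytes and at 557, 561, 1192, 324 and 288 CPM in lung macrophages. Ccl2, the ligand of CCR2, was at 11.2 to 52.7 CPM in monocytes and at 157, 79.5, 330.1, 48.5 and 104 CPM in lung macrophages, with overlap between the groups. Ccl22, a ligand of CCR4, gave 2 reads in monocytes and was at 398 CPM in lung library 3 and at 6.36 to 65.0 CPM in the other lung libraries. Ccl9, a ligand of CCR1, was called higher in monocytes, at 557 to 963 CPM against 183 to 458 CPM.

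Of 15 complement genes tested, the 3 C1q genes included, 13 were called higher in lung macrophages and 2 in monocytes. C3, the central component, was at 364 to 416 CPM in monocytes and at 54.5 to 127 CPM in lung macrophages. Cfp, which encodes properdin of the alternative pathway, was at 466 to 564 CPM in monocytes and at 148, 105, 428, 77.2 and 140.4 CPM in lung macrophages. C3ar1, the receptor for C3a, was at 0.971 to 2.68 CPM in monocytes, at 497 CPM in lung library 3 and at 35.8 to 74.5 CPM in the other lung libraries. Serping1, an inhibitor of C1 that fibroblasts also make, gave 1 read in monocytes and was at 586, 304, 210.3, 225 and 92.0 CPM in lung macrophages.

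Transcription factors called higher in lung macrophages included Cebpb, Klf2 and Bhlhe40. Cebpb, which nonclassical monocytes need, was at 202 to 306 CPM in monocytes and at 2431, 2302, 588, 2246 and 3545 CPM in lung macrophages. Klf2, a factor of quiescence, and Bhlhe40, a repressor induced by many stimuli, were at 471 to 899 and 342 to 670.5 CPM in lung macrophages and at 85.1 to 156 and 9.02 to 16.9 CPM in monocytes. Lung library 3 was the lowest lung library for Cebpb, Klf2, Bhlhe40 and Pparg.

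Receptors of phagocytes were higher in lung macrophages for 15 of 17 genes. Cd36, a scavenger receptor for lipoproteins, was at 1.70 to 2.55 CPM in monocytes and at 1569, 1097, 401, 824 and 1363 CPM in lung macrophages. Trem2, a lipid sensor of macrophages, was at 2.88 to 3.95 CPM in monocytes, at 202 CPM in lung library 3 and at 19.6 to 49.2 CPM in the other lung libraries. Mertk, a receptor for dying cells, stayed low, at 3.55 to 19.0 CPM in lung macrophages and at most 0.702 CPM in monocytes. Msr1, a scavenger receptor, was the exception in the other direction, at 74.7 to 130.3 CPM in monocytes and 26.7 to 83.3 CPM in lung macrophages. Lysosome genes were called higher in lung macrophages for 12 of 23 and in monocytes for 2, with a median log2 fold change of 0.55 beside 0.268 over all genes. Over all tested genes the shares called were 39.1% and 25%. Lgmn, a lysosomal protease, was at 35.03 to 52.7 CPM in monocytes and 366 to 965 CPM in lung macrophages, and Npc2, a cholesterol carrier, was at 591 to 746 CPM in monocytes and 229.5 to 635 CPM in lung macrophages.

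Genes of lipid and iron handling were called in both directions, with median log2 fold changes of 1.29 and 1.065 beside 0.268 over all genes. Of all tested genes, 39.1% were called higher in lung macrophages and 25% in monocytes. Of 18 lipid genes 11 were called higher in lung macrophages and 3 in monocytes, with the fatty acid carriers moving apart: Fabp4 had a log2 fold change of 7.39 and Fabp5, at 150.4 to 203 CPM in monocytes and 33.6 to 117 CPM in lung macrophages, of -1.38. Of 13 heme and iron genes 8 were called higher in lung macrophages and 4 in monocytes. Slc40a1, the iron exporter ferroportin, was at 85.3, 108, 52.7 and 74.1 CPM in monocytes and 2.42 to 6.01 CPM in lung macrophages. Fth1, the heavy chain of ferritin, and Hmox1, which degrades heme, were at 6770 to 11120 and 160.1 to 562 CPM in lung macrophages against 1474 to 1875 and 50.9 to 78.4 CPM in monocytes. The exporter was thus lower and the storage protein higher in lung macrophages, with no overlap between groups.

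Receptors for growth and inhibitory signals were mostly higher in lung macrophages or not called. Csf1r, the receptor for the macrophage growth factor CSF1, was at 294, 191, 283 and 202 CPM in monocytes and at 1244, 1400, 1036, 1470 and 1909 CPM in lung macrophages. Of 17 cytokine receptors 9 were called higher in lung macrophages and 0 in monocytes, beside 39.1% and 25% of all tested genes. The median log2 fold change of these receptors was 0.841 beside 0.268 over all genes. Without lung library 3 the counts were 11 and 1. Il10ra, the ligand-binding chain of the IL-10 receptor, had a log2 fold change of 2.60. In the TGF-beta pathway 13 of 16 genes were called higher in lung macrophages. Tgfbr1 and Tgfbr2, its signalling receptors, were at 42.8 to 129 and 75.1 to 103 CPM in lung macrophages and at 11.9 to 13.9 and 7.71 to 16.5 CPM in monocytes, and the ligand Tgfb1 had a log2 fold change of 1.41. Of 13 Toll-like receptor genes 3 were called higher in lung macrophages and 0 in monocytes, below the 39.1% and 25% of all tested genes. Their median log2 fold change was 0.49 beside 0.268 over all genes. Among the 3 was Cd14, the coreceptor for lipopolysaccharide, at 443 to 2447 CPM against at most 41.0 CPM in monocytes. Of 6 Fc receptor genes 2 were called higher in lung macrophages and 0 in monocytes, and the list median was 0.20, near that of all genes. Fcgr4, a receptor of nonclassical monocytes, was at 16.8 to 26.5 CPM in monocytes and at 549, 489.6, 145, 450.2 and 913 CPM in lung macrophages.

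Integrin and BCL2 family genes were called in both directions, with median log2 fold changes of 1.329 and 1.464 beside 0.268 over all genes. Among all tested genes, 39.1% were called higher in lung macrophages and 25% in monocytes. Of 18 integrin and adhesion genes 13 were called higher in lung macrophages and 2, Itgb7 among them, in monocytes. Itgal, a chain of LFA-1, was at 59.2 to 75.1 CPM in monocytes, at 73.6 CPM in lung library 3 and at 425 to 635 CPM in the other lung libraries. Itgax, which encodes CD11c, was at 80.3 to 149 CPM in lung macrophages and at most 0.765 CPM in monocytes. Of 14 BCL2 family genes 8 were called higher in lung macrophages and 2 in monocytes. Bcl2, an inhibitor of apoptosis, was at 4.34, 4.61, 7.64 and 4.63 CPM in monocytes and at 76.0, 119, 46.9, 135 and 193 CPM in lung macrophages, and Mcl1, another inhibitor, had a log2 fold change of 1.79. Bid, a promoter of apoptosis, was at 173 to 183 CPM in monocytes and 29.4 to 51.6 CPM in lung macrophages.

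**Figure D5:**
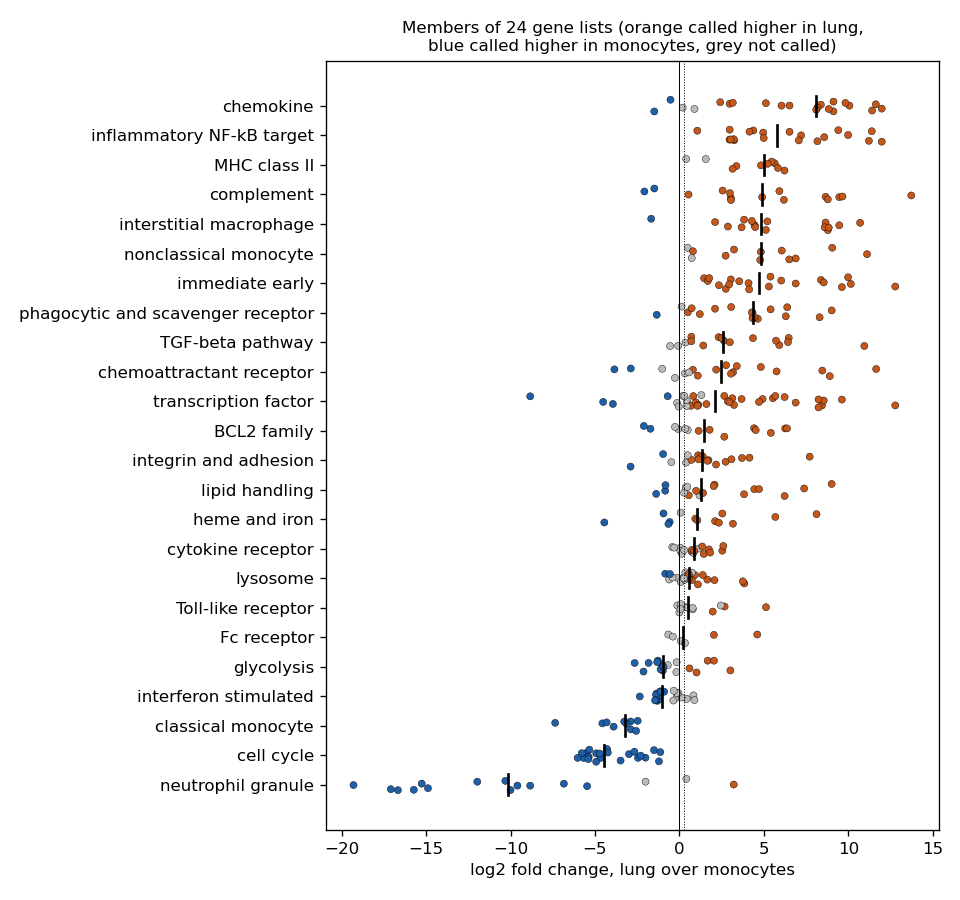
Log2 fold change of lung over monocytes (horizontal axis) for each member of 24 gene lists (rows, ordered by median). Points are genes, orange where called higher in lung macrophages, blue where called higher in monocytes and grey where not called. Short bars are list medians, from -10.155 for granule genes to 8.10 for chemokines, and the dotted line is the median of all tested genes, 0.268.

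Without lung library 3 most counts of the lists above moved by at most 1 gene. Besides those already given, larger changes or calls in a new direction, stated as higher in lung macrophages and higher in monocytes, were 14 and 3 for lipid handling, 15 and 2 for integrins and adhesion, 12 and 4 for lysosome, 3 and 2 for Fc receptors, 14 and 1 for the TGF-beta pathway and 11 and 2 for complement. The direction in which most called members of these lists lay did not change.

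The comparison was repeated in ACKR2-/- samples of the same cell types, which share no sample with it but share its tables. There 15788 genes were tested, with 5615 (35.6%) called higher in lung macrophages and 3891 (24.6%) in monocytes. Of 5803 WT calls higher in lung macrophages that could be tested, 5005 were called in the same direction, as were 3248 of 3924 WT calls higher in monocytes, and 4 calls were opposite. A test of the difference itself between genotypes, in a fit of both, called 6 of 17428 genes (0.0344%) at an adjusted p under 0.05. These were Skap1, Trbc2, Gimap4, Capn1 and the immunoglobulin segments Igkv14-126 and Igkv8-27. Trbc2, a constant segment of the T cell receptor, was the member of a list among them, with a log2 fold change that differed by -4.37 in ACKR2-/- samples relative to WT (adjusted p = 0.0391). In WT lung macrophages Trbc2 was at 61.0, 27.1, 27.9, 30.9 and 11.4 CPM.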

How the data were processed

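RNA of FACS sorted cells was sequenced after poly-A selection and SMARTer amplification. For every cell type the authors deposited 1 table of raw read counts per gene. The submitters' processing notes list HISAT2 2.0.5, featureCounts 1.5.0-p3, DESeq2 and the build mm10 without saying which table each served, and the lung table ends with lines of totals that the monocyte table lacks. The 4 WT monocyte and 5 WT lung columns were joined on gene identifier, which left 50104 of 53801 monocyte and 57186 lung genes. The 574 loci without a gene name (0.179 to 0.208% of monocyte counts) and 5 lines of totals were left out, and reads on no feature were 45.1 to 48.9% of lung counts. All columns used were mapped to samples by name, and 0 were unmapped.

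Counts were analysed in R 4.3.3 with edgeR 4.0.16, using filterByExpr (minimum count 10, minimum total 15), TMM factors and the quasi-likelihood test, with Benjamini-Hochberg adjustment over 15954 genes. The thresholds of a call were 0.05 for the adjusted p and 0.5 for the size of the log2 fold change, which is positive where lung was higher. Means are given with the SD between libraries. For genes with 0 reads in a group, bounds use 3 reads over that group, and with 1 to 3 reads an exact 95% counting interval. Intervals and floors cover counting error only. Exact permutation tests used log2(CPM + 1). Exon overlap was computed from GENCODE M21, whose positions are on GRCm38. Steps were tested on simulated data. The methods call replicates biological and give 5 mice for each monocyte sample. How many animals each lung sample came from is not stated there, so that p-values measure only the spread between these samples, which may in part be technical. Every pair of replicates differed by more than sampling noise.

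Members, gene lists and tests were chosen with earlier results of these data known. Genes named are Ly6c2, Camp, C1qa and Cxcr4, the 12 with the most extreme fold changes in each direction among called protein coding genes whose libraries do not overlap between the groups and with a mean of at least 100 CPM, Ackr2, genes of the gates, and up to 2 called genes of each of 36 lists per direction. A few genes and gate markers that this rule covers are not reported here. Further list members were named after their values were seen. The lists are classical monocyte, nonclassical monocyte, neutrophil granule, interstitial macrophage, alveolar macrophage, dendritic cell, MHC class II, T cell, NK cell, B cell, eosinophil, mast cell or basophil, erythroid, megakaryocyte, lung epithelial, endothelial, fibroblast, cell cycle, chemoattractant receptor, chemokine, complement, transcription factor, immediate early, inflammatory NF-kB target, phagocytic and scavenger receptor, lysosome, lipid handling, heme and iron, Fc receptor, Toll-like receptor, integrin and adhesion, interferon stimulated, TGF-beta pathway, cytokine receptor, BCL2 family and glycolysis. They are described by counts and medians, without set tests. Alternatives were RLE, upper quartile and no factors, no filter or a filter at 1 CPM, DESeq2 1.42.0, the robust fit, other thresholds, each library left out, the replicate number as a block, all 26 samples in a fit, genes counted in both tables, and the ACKR2-/- samples. Leaving out genes with opposite-strand overlap, and leaving out lung libraries 3 and 5 together, were added after the data were seen. Promoter sequences are from RefSeq on GRCm38.p6. C1qa had no promoter entry in the table used.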

Additional observations from a re-analysis of the deposited data

Results flagged for a closer look

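In groups of 4 or 5 libraries the highest or lowest value was compared with the spread of the others by Dixon's criterion, which chance meets in about 1 in 20 groups. It was met in 48 of 324 groups, and in 29 of these by lung library 3, 26 times as the highest and 3 times as the lowest. High in lung library 3 were C1qa (2882 CPM), C1qb (5322), C1qc (3853), C3ar1 (497), Ccl22 (398.3), Ccr2 (353.2), Cd14 (2447), Cd209a (560.2), Cd74 (49060), Cfp (427.9), Egr2 (109.3), H2-Ab1 (22270), H2-DMa (1367), Ifit2 (10.46), Mrc1 (166.8), Msr1 (83.27), Plk1 (9.481) and Trem2 (202.4), each in CPM. The summed CPM of lists was also highest there for interstitial macrophage (25000), dendritic cell (1311), MHC class II (105100), B cell (4724), megakaryocyte (695.3), cell cycle (942.2), chemokine (9813) and complement genes (14410). Low in lung library 3 were Nr4a1 (1447 CPM) and the sums for nonclassical monocyte (2439) and transcription factor genes (8763).

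Lung library 1 was high for Inmt (1818 CPM) and for the mast cell or basophil list (356.1). Monocyte library 3 was high for Bcl2 (7.637 CPM), Cxcl2 (6.53) and Gapdh (29.94), and monocyte library 4 for Fabp4 (3.256). Monocyte library 2 was low for Cd209a (42.44 CPM) and for the interferon stimulated list (945.3). The remaining values are low levels in a group otherwise at or near 0. These were Ackr2 (0.1107 CPM), Gzma (0.0553), Serping1 (0.0607), Sftpc (0.0638) and Ccl22 (0.1276) in monocytes, and Camp (0.3497), Ctsg (0.1013), Elane (0.0507), Mogat2 (0.2027), Mpo (0.2466) and Ngp (1.806) in lung macrophages.

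The log2 fold change of lung over monocytes for Trbc2 differed between genotypes by -4.372 (ACKR2-/- minus WT, edgeR adjusted p = 0.0391), the only one of 126 named genes to do so in that test.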

How the results depend on the processing

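Counts of called genes were 6239 higher in lung macrophages and 3990 higher in monocytes. Beyond a log2 fold change of 2, monocytes kept 1284. Without genes that have exon overlap on the opposite strand, which left 10534 genes to test, the counts were 3762 and 2626. When each library was left out in turn, the counts ranged from 5249 to 6695 and from 3445 to 4002. Other normalizations, filters, the robust fit, both tables only, all 26 samples and the ACKR2-/- samples gave 5615 to 7682 and 3489 to 4338, and DESeq2 gave 7747 and 4357, all within 1.5 times. Replicate numbers did not pair the samples, since the deviations of libraries with the same number correlated at -0.16 to 0.021, and a replicate block over 4 numbers gave 5743 and 3917. Scaling moved the median log2 fold change of all genes from 0.268 to between 0.258 and 0.33.

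For genes named in the text, 2931 values under alternatives kept direction and call, 24 lost the call, 9 gained it and 10 changed sign. The sign changes were in genes not called with all libraries. H2-DMa went from 0.40 to -1.01 without lung library 3, -0.9979 in ACKR2-/- samples, -0.37 under the block and -0.97 without lung libraries 3 and 5. Cd209a went from 1.24 to -1.88, -2.20, -0.69 and -1.51 in the same order. Ighm went from 0.47 to -0.024 without lung library 3 and -0.60 in ACKR2-/- samples. With 1 library left out in turn, H2-DMa reached up to 0.67, Cd209a up to 1.57 and Ighm up to 0.66. The cause was not tested, except that the removal of lung library 3 itself moved these values. Cx3cr1, Nkg7, Irf8 and Itgb7 were not called in ACKR2-/- samples, and Cx3cr1 and Irf8 were not called in the fit of all 26 samples. Beside these, the depth limits genes near 0.2 CPM.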
